A study of Solanum tuberosum with 10 samples.

Results

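The change in gene expression over the first day after cutting was examined in potato (Solanum tuberosum) of the cultivar Desirée kept in vitro. An explant was a single node with its leaf, cut from a plantlet grown for 4 weeks. Of the 10 libraries of the series, 4 entered the contrast: control and ultrasonicated explants at 0 h, directly after treatment, and the same arms at 24 h. Explants of the ultrasonicated arm had been exposed to ultrasound in liquid Murashige and Skoog medium, and those of both arms were then kept on medium free of growth regulators. The labels do not say whether the control explants were held in liquid too. All 4 libraries carry the tissue label stem. Each library was made from a pool of 3 biological replicates, so each arm and time has 1 library and the arms serve as the 2 libraries a side, with arm as an additive term. P-values therefore reflect how far the arms disagree in their course over the whole series. Differences between pools and effects of ultrasound that change with time both enter this and cannot be told apart. The spread between plants is unknown. The 24 h libraries differ from those at 0 h both in the time since cutting and in a day of culture on new medium, and these cannot be told apart. In the ultrasonicated arm they also differ in the time since ultrasound. Any passing effect of the treatment enters that change, and the additive arm term does not remove it.

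Cutting a node wounds the stem, severs it from the root and the shoot tip, and leaves the axillary bud to grow out. Plant tissue is known to answer wounding with defence peptides, phenolic compounds and a shift of carbon between photosynthesis, starch and respiration. The genes that could be followed by name include members of these processes and of protein synthesis. The deposited table pairs 22 of its 39021 gene models with a symbol, taken only from rows whose annotation columns name the counted feature itself and not an overlapping one, and 0 of its feature identifiers occur in the RefSeq gene table used here (assembly SolTub_3.0), so all other gene models are known by identifier and position only. Stem-defining markers could not be looked up for the same reason, and the tissue label was not checked. Levels are given in CPM, counts relative to the library total after scaling it by the TMM factor, which allows for differences in library composition.

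Total counts in the 4 libraries ran from 122786170 to 140007599. The ultrasonicated library at 0 h stood apart, with a TMM factor of 0.688 against 0.885 to 1.02 in the other 3, and the control library at 24 h had 2.19% rRNA against 0.066% to 0.423%. After a filter on low counts 24421 features were tested with edgeR's quasi-likelihood test, on a spread estimated from all 10 libraries, and a feature was called when its Benjamini-Hochberg adjusted p was under 0.05.

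At 24 h the explants had lower levels of transcripts for a Rubisco small subunit (RBCS-2C), an antimicrobial peptide (SN2), a methyl-donor synthase (METK1) and a translation factor (EIF5A5). They had higher levels for chalcone synthase (CHS1B), granule-bound starch synthase (WAXY), an enzyme of branched-chain amino acid breakdown (IVD), a DNA-binding Whirly protein (WHY1) and another translation factor (EIF5A4). Most of these calls depended on which libraries entered, as given gene by gene below, and that of EIF5A4 lay at the threshold. In all, 4859 of 24421 features were called (19.9%), of which 2311 were higher (9.46%) and 2548 lower (10.4%). With total counts in place of the TMM factor, a scaling that moves the median feature from 0.01 to 0.35 on the log2 scale, the calls were 3749 higher and 1818 lower. The 2548 fallers held 39.2% of the counts of the control library and 41.3% of the ultrasonicated library at 0 h, and 9.94% and 10.7% at 24 h. The 2311 risers held 6.8% and 5.96% at 0 h and 23.1% and 24.9% at 24 h. The fallers took a larger share at 0 h than the risers did at 24 h. Since the calls were made on these same counts, the direction of each shift follows from the calls. The difference in size was not tested. In bulk libraries fewer cells of a type and less RNA per cell cannot be told apart, and shares within a library add up to its total and do not measure RNA per explant.

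All 4859 called features moved the same way in both arms. The test favours this, since it weighs the mean change of the arms against their disagreement, so it is no separate evidence. Measured library against library, 3789 features were over 2-fold higher at 24 h in the control arm and 4024 in the ultrasonicated arm, and 3965 and 4979 were over 2-fold lower. Over 2-fold changes in opposite directions were seen in 207 features that were higher in control and lower in ultrasonicated explants, and in 86 of the reverse kind. Over 4-fold, 49 features went up in control and down in ultrasonicated explants, and 1 went the other way. The difference between the arms in their change was not tested. The number of calls varied with the libraries used: it was 1326 without the control library at 24 h, 1282 without the ultrasonicated library at 24 h and 3095 without the ultrasonicated library at 0 h, against 4832 without the control library at 0 h. In these refits the side with 1 library is assumed to vary as the others do, and none of the 4859 features was called in the opposite direction.

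**Figure D1:**
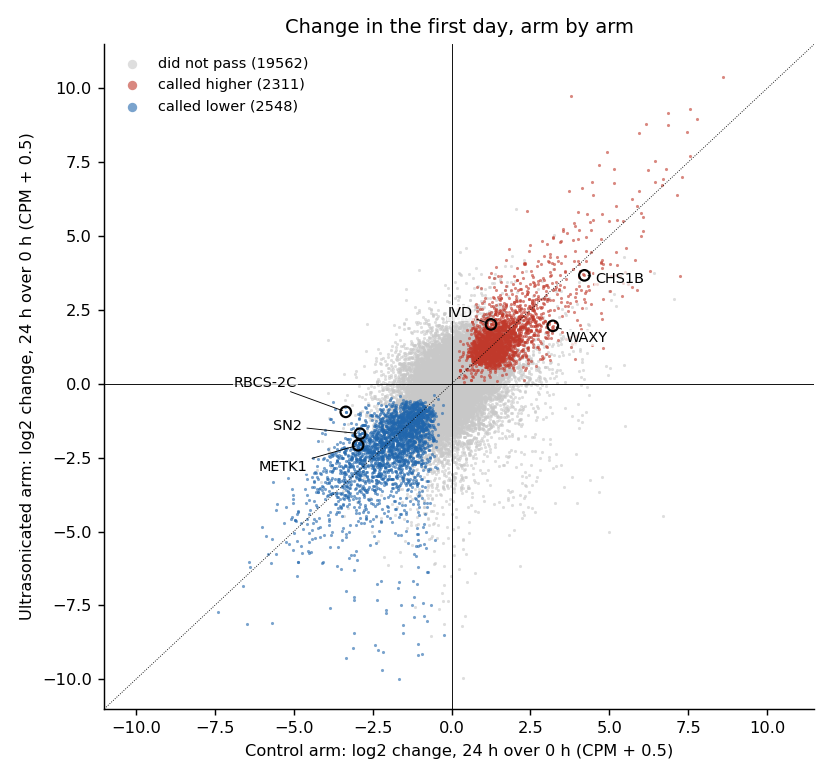
Each point is 1 of 24421 tested features, placed by its log2 change from 0 h to 24 h in the control arm (horizontal) and in the ultrasonicated arm (vertical), with 0.5 CPM added to each level. Called features lie in the quadrants where both arms move alike, which the test favours. A group of blue points far below the diagonal fell much further in the ultrasonicated arm than in control.

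The genes with a symbol gave 5 rises and 4 falls among the 20 tested, with 11 not passing, where 9.46% of all tested features rose and 10.4% fell. They had a median log2 change of 0.00 against 0.01 over all features tested. The other pair, both named RPS18 after a plastid ribosomal protein gene, had at most 18 counts in any of the 4 libraries and did not pass the filter. All 22 symbols occur among the symbols or synonyms of the RefSeq table.

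**Figure D2:**
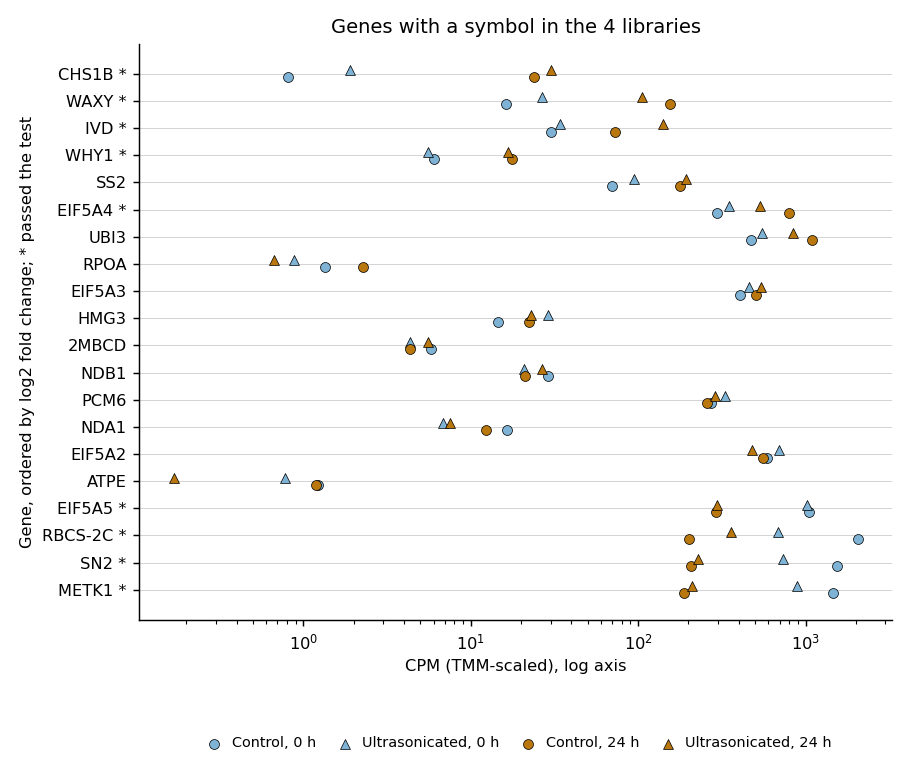
Levels of the 20 tested genes with a symbol in CPM on a log axis, with 1 point per library, ordered by the fitted log2 fold change and starred where the test was passed. In all 9 starred genes the pair of 24 h points lies wholly on one side of the pair of 0 h points, which the test favours. The same holds for SS2, UBI3, EIF5A2 and EIF5A3, which did not pass.

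Genes of starch formation and carbon fixation moved apart. RBCS-2C, which encodes a Rubisco small subunit (PGSC0003DMG400012666, chromosome 2, 41192215 to 41193945), stood at 2064 CPM (control) and 688 CPM (ultrasonicated) at 0 h, and at 202 and 357 CPM at 24 h. Both 24 h libraries lay below both 0 h libraries, but the fall was to 0.0979 times the starting level in control (exact 95% interval 0.0966 to 0.0992) and to 0.519 times in ultrasonicated explants (0.513 to 0.525). These intervals cover counting error only. The fitted log2 change was -2.21 (SE 0.612, edgeR adjusted p = 0.0406). It was -1.25 without the control library at 0 h (edgeR adjusted p = 0.144), -1.55 without the control library at 24 h (0.237), -2.93 without the ultrasonicated library at 24 h (0.0704) and -1.91 with total counts (0.0648), so the call rests on each of these. The RefSeq table lists RBCS-2B beside the entry for this gene, and reads shared between such copies make the value uncertain.

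WAXY, the granule-bound starch synthase that makes amylose (PGSC0003DMG400012111, chromosome 8, 56782186 to 56785790), rose from 16.3 and 26.8 CPM at 0 h to 155 CPM (control) and 106 CPM (ultrasonicated). The increase was 9.5-fold in control (9.06 to 9.98) and 3.96-fold in ultrasonicated explants (3.79 to 4.13), and the fitted log2 change was 2.56 (SE 0.611, edgeR adjusted p = 0.0251). The call ended without the control library at 0 h (2.05, edgeR adjusted p = 0.0965), the control library at 24 h (2.36, 0.115) or the ultrasonicated library at 24 h (2.76, 0.0918). SS2, a starch synthase (PGSC0003DMG400001328, chromosome 2, 46189568 to 46196715), had 69.9 and 95 CPM at 0 h, then 177 and 192 CPM at 24 h. The groups do not overlap, but its log2 difference of 1.16 (SE 0.356, edgeR adjusted p = 0.0556) missed the threshold, which DESeq2 (0.0222) and limma-voom (0.0412) passed.

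In specialised metabolism CHS1B, a chalcone synthase that opens the flavonoid pathway (PGSC0003DMG400029620, chromosome 9, 58356999 to 58359082), stood at 0.813 CPM (control) and 1.91 CPM (ultrasonicated) at 0 h, and at 23.8 and 30.1 CPM at 24 h. The RefSeq table lists CHS1B as a synonym of CHS1A. The arms were closer at 24 h than at 0 h, so that the increase was 29.3-fold in control (23.8 to 36.5) and 15.7-fold in ultrasonicated explants (13.6 to 18.4). Its fitted log2 change of 4.4 (SE 0.509, edgeR adjusted p = 0.0026) ran from 4.06 to 4.74 when 1 of the 4 libraries was left out, and the call held in each case. METK1, a synthase of the methyl donor S-adenosylmethionine (PGSC0003DMG400018292, chromosome 1, 78724855 to 78727233), fell from 1461 CPM (control) and 891 CPM (ultrasonicated) to 188 and 210 CPM (log2 -2.55, SE 0.301, edgeR adjusted p = 0.00269). Leaving out 1 library gave -2.96 to -2.14, with the call kept. HMG3, which encodes an HMG-CoA reductase, an early enzyme of isoprenoid synthesis (PGSC0003DMG400018679, chromosome 3, 3011536 to 3015241), had 14.6 and 29 CPM at 0 h, then 22.3 and 22.9 CPM at 24 h, so that the arms came together from opposite sides (0.05, edgeR adjusted p = 0.943).

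Among the genes of protein synthesis and turnover the members of the EIF5A family, a translation factor that carries the modified amino acid hypusine, did not move together. EIF5A5 (PGSC0003DMG400024558, chromosome 3, 55475040 to 55477312) had 1049 CPM (control) and 1024 CPM (ultrasonicated) at 0 h, and 292 and 296 CPM at 24 h. The arms differed little at either time, and the log2 change was -1.81 (SE 0.298, edgeR adjusted p = 0.00689), or -1.64 without the control library at 24 h (0.0643). EIF5A4 (PGSC0003DMG400026829, chromosome 1, 51719395 to 51722322) went the other way, from 296 and 348 CPM to 796 CPM (control) and 536 CPM (ultrasonicated) (1.07, SE 0.314, edgeR adjusted p = 0.0492). Its call lay at the threshold: without 1 library at a time the log2 change was 0.62 to 1.43 and the call ended each time, with adjusted p-values of 0.135 and 0.276 without the control libraries at 0 h and 24 h, and 0.128 and 0.0513 without the ultrasonicated ones.

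EIF5A2 (585 and 694 CPM at 0 h, 558 and 480 CPM at 24 h) and EIF5A3 (407 and 460 CPM, then 505 and 542 CPM) did not pass, with edgeR adjusted p = 0.467 and 0.462. EIF5A2 had a log2 difference of -0.3 and turned to 0.053 with total counts. UBI3, a ubiquitin gene fused to a ribosomal protein and also named RPS27A (PGSC0003DMG400005199, chromosome 1, 63211724 to 63212425), had 473 and 548 CPM at 0 h, then 1098 and 840 CPM at 24 h. Both later values exceeded both earlier ones, at a log2 difference of 0.94 (SE 0.311, edgeR adjusted p = 0.0701) that missed the threshold and passed it with total counts (0.0166) and with DESeq2 (0.0391).

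In respiration and amino acid breakdown 1 of 4 genes was called, a share near the 19.9% over all features. IVD, isovaleryl-CoA dehydrogenase of leucine breakdown (PGSC0003DMG400008113, chromosome 11, 41104262 to 41111799), rose from 30.2 and 34.3 CPM to 72.5 CPM (control) and 140 CPM (ultrasonicated). The rise was 2.4-fold in control (2.31 to 2.5) and 4.08-fold in ultrasonicated explants (3.93 to 4.24), and the fitted log2 change was 1.7 (SE 0.314, edgeR adjusted p = 0.0104). It was 1.11 without the ultrasonicated library at 24 h (0.0813) and 1.66 without that at 0 h (0.051), and the call ended in both. The related 2MBCD, of isoleucine breakdown (PGSC0003DMG400026901, chromosome 6, 54061915 to 54066400), had 5.83 and 4.37 CPM at 0 h, then 4.32 and 5.54 CPM at 24 h. The alternative NAD(P)H dehydrogenases of mitochondria, NDA1 (16.4 and 6.86 CPM, then 12.4 and 7.53 CPM) and NDB1 (29.1 and 20.8 CPM, then 21.2 and 26.7 CPM), overlapped between the times in the same way. None of these 3 passed (edgeR adjusted p = 0.95 for 2MBCD, 0.843 for NDA1 and 0.889 for NDB1), and each has a direction that turns with total counts.

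SN2, a snakin-type antimicrobial peptide gene (PGSC0003DMG400001598, chromosome 1, 87145671 to 87146801), stood at 1544 CPM (control) and 738 CPM (ultrasonicated) at 0 h and at 207 and 229 CPM at 24 h. The fall was to 0.134 times the 0 h level in control (0.132 to 0.136) and to 0.311 times in ultrasonicated explants (0.306 to 0.315), since the arms differed at 0 h and met at 24 h. The log2 change was -2.42 (SE 0.488, edgeR adjusted p = 0.0139). It was -1.52 without the control library at 0 h and -3.1 without the ultrasonicated library at 0 h, and the call ended without the control (-2.39, 0.0987) or the ultrasonicated library at 24 h (-2.44, 0.0864). WHY1, a Whirly protein that binds single-stranded DNA (PGSC0003DMG400017627, chromosome 5, 5903924 to 5907317), rose from 6.02 and 5.56 CPM to 17.7 and 16.8 CPM. Its rise was nearly the same in the arms, 2.94-fold (2.7 to 3.21) in control and 3.02-fold (2.75 to 3.33) in ultrasonicated explants, and the log2 change was 1.57 (SE 0.304, edgeR adjusted p = 0.0122). The call ended without the control library at 24 h (1.4, edgeR adjusted p = 0.0875), the ultrasonicated library at 0 h (1.31, 0.0569) or that at 24 h (1.73, 0.0515). PCM6, a calmodulin (PGSC0003DMG400022693, chromosome 1, 5358830 to 5361994), had 272 and 330 CPM at 0 h, then 258 and 289 CPM at 24 h. Its log2 difference of -0.14 (edgeR adjusted p = 0.759) turned to 0.22 with total counts, and the RefSeq table lists PCM6 as a synonym of PCM8, together with PCM5 and PCM7.

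Genes named after plastid genes but placed on nuclear chromosomes were scarce. ATPE, named after an ATP synthase subunit (PGSC0003DMG400025106, chromosome 5, 1659655 to 1660475), had 138 and 75 counts at 0 h and 142 and 22 counts at 24 h. RPOA, named after an RNA polymerase subunit (PGSC0003DMG400014075, chromosome 12, 3289301 to 3291579), had 153 and 85 counts at 0 h and 270 and 87 counts at 24 h. In both genes the ultrasonicated libraries had fewer counts than the control libraries at each time, the times overlapped, and neither gene passed (edgeR adjusted p = 0.853 and 0.866).

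Beyond 16-fold by the fit, 317 features were higher and 274 lower, and beyond 64-fold 214 were higher and 77 lower. Of the 214 rises, 135 had no count in either library at 0 h, so that their fitted fold depends on the prior count of the test and is no bound. At least 5 CPM in both libraries at 24 h was reached by 49 of the 214, and at least 100 CPM by 17. Of the 77 falls, 15 had no count in either library at 24 h, and 40 had started from at least 5 CPM in both libraries.

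Many of the largest falls began from 0 h levels that differed between the arms. Of the 77 falls beyond 64-fold, 33 (42.9%) had over 4 times the control level in the ultrasonicated library at 0 h, and so did 65 of the 274 beyond 16-fold (23.7%) and 119 of all 2548 falls (4.67%). Over all features tested the share was 2.78% (680 features). The reverse, over 4 times the ultrasonicated level in control at 0 h, held for 1 of the 77 and 1 of the 274. It held for 9 of all 2548 falls and for 175 of the 24421 features tested, so it was rare throughout. The 0 h level enters the fitted fall, so such features are more likely to be among the largest falls. Rises are high at 24 h, and at that time 7 of the 214 beyond 64-fold were over 4-fold higher and 8 over 4-fold lower in the ultrasonicated than in the control library. Over all 24421 features tested these numbers at 24 h were 83 and 228, so both kinds took a larger share of the 214. Of these 214, 165 did not reach 5 CPM in both libraries at 24 h, against 37 of the 77 falls at 0 h. These ratios of the arms have 0.5 CPM added to each level, so a 4-fold difference is harder to reach at low levels. In the 77 features the median log2 change, with 0.5 CPM added, was -1.92 in control and -5.12 in ultrasonicated explants. In the 214 rises beyond 64-fold it was 1.49 and 1.51. Over all 2548 falls it was -1.82 and -2.03, and over all 2311 rises 1.46 and 1.43. Some of the falls and some of the rises beyond 16-fold lost their call when any 1 of the 4 libraries was left out. The same was seen among all 2548 falls and all 2311 rises, so such losses were not particular to the largest changes.

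**Figure D3:**
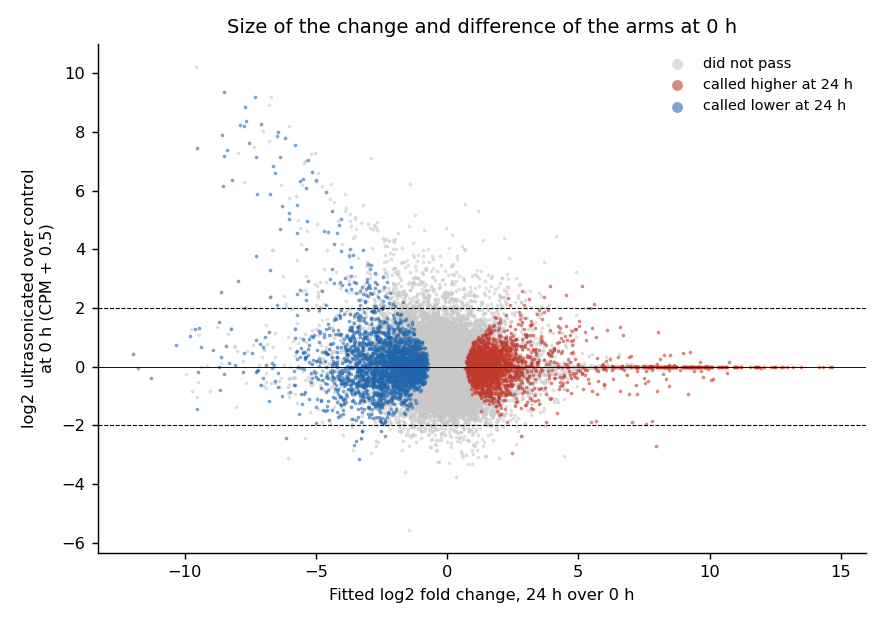
Each point is a tested feature, with its fitted log2 fold change from 0 h to 24 h (horizontal) and the log2 ratio of the ultrasonicated to the control library at 0 h (vertical, 0.5 CPM added), and the dashed lines mark 4-fold. The largest falls include a branch of features far above the upper line. The largest rises lie in a row at a ratio near 0 because they are at or near no count in both 0 h libraries, so the plot cannot show differences between the arms for them.

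A strict form of appearance and loss was counted with no test, since the rule fixes the direction. At 24 h 35 features had at least 1 CPM in both libraries after at most 3 counts in each library at 0 h, and 5 features were lost by the same rule. The levels when present ran from 1.03 to 95 CPM (median 3.2) in the 35 and from 1.23 to 9.04 CPM (median 2.2) in the 5. A floor of 3 counts corresponds to 0.0229 to 0.0312 CPM in the 4 libraries.

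Among gene models without a symbol, the largest rises at a mean of at least 20 CPM with more than 3 counts in every one of the 4 libraries were PGSC0003DMG400003058 and PGSC0003DMG400003056, which lie on chromosome 8 from 54298665 to 54299598 and from 54287497 to 54288790. The former had 14 and 4 counts at 0 h (0.124 and 0.0415 CPM) and 116 and 112 CPM at 24 h, giving a fitted change of 10.66 on the log2 scale (SE 0.625, edgeR adjusted p = 0.00143). The latter had 0.451 and 0.208 CPM at 0 h, then 179 and 448 CPM at 24 h (10.13, SE 1.17, edgeR adjusted p = 0.0026). Both were nearly silent in each arm at 0 h and abundant in each arm at 24 h, and without 1 library at a time the log2 change was 9.8 to 11.46 for the former and 8.56 to 11.15 for the latter.

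The largest falls by the same rule were PGSC0003DMG400003522 (chromosome 2, 40242372 to 40243903) and PGSC0003DMG400030341 (chromosome 6, 56907909 to 56908742). PGSC0003DMG400003522 had 42.5 CPM (control) and 252 CPM (ultrasonicated) at 0 h and 0.326 and 0.421 CPM at 24 h (log2 -8.6, SE 1.13, edgeR adjusted p = 0.00363), and both later levels lay far below both earlier ones. Leaving out 1 library moved this from -9.62 to -6.56. PGSC0003DMG400030341 had 15.6 CPM in control against 3831 CPM in ultrasonicated explants at 0 h, and 3 and 4.11 CPM at 24 h. Its fall was to 0.193 times the 0 h level in control (0.172 to 0.216) and to 0.00107 times in ultrasonicated explants (0.000983 to 0.00117). The fitted log2 change of -8.57 (SE 2.16, edgeR adjusted p = 0.0303) shrank to -2.3 without the ultrasonicated library at 0 h, where the call ended (0.0746). It also ended without the control (-8.85, 0.144) or the ultrasonicated library at 24 h (-8.14, 0.178).

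The later times are given as levels only. PGSC0003DMG400003058 declined from 24 h onward and stood at 92.2 CPM (control) and 32.5 CPM (ultrasonicated) at 48 h, at 6.81 and 2.06 CPM at 1 week, and at 0.0856 and 0.0245 CPM at 4 weeks. PGSC0003DMG400003056 at 48 h was at 189 CPM in control, not below its 24 h level, and at 82.5 CPM in ultrasonicated explants, with 5.63 and 6.57 CPM at 1 week and 2.43 and 0.343 CPM at 4 weeks. PGSC0003DMG400003522 stood at 1.69 and 1.32 CPM at 48 h and at 13.7 and 11.8 CPM at 4 weeks, below its 0 h levels at each time. PGSC0003DMG400030341 stood at 55.1 and 40.5 CPM at 4 weeks, above the control level at 0 h and far below the ultrasonicated one.

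**Figure D4:**
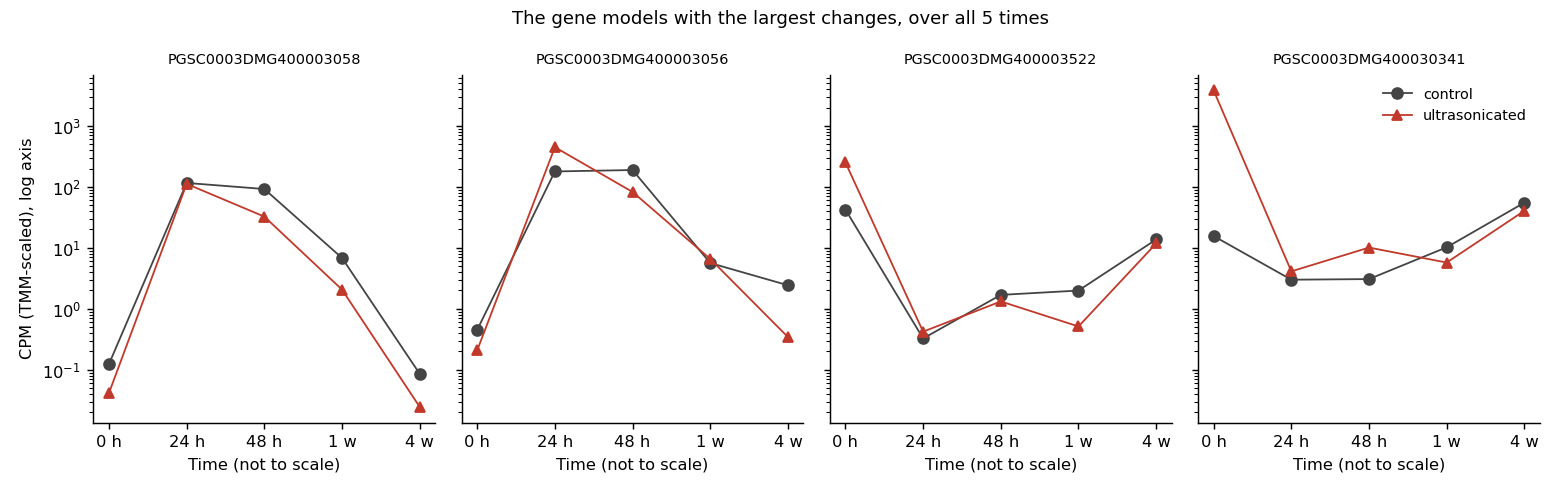
Levels in CPM (log axis) of the gene models without a symbol that changed most under the naming rule, at the 5 times (spaced evenly, not to scale) in control and ultrasonicated explants, with 1 library per point. The rises are shared by the arms, whereas PGSC0003DMG400030341 falls from 3831 CPM in the ultrasonicated arm and from 15.6 CPM in control.

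Some features called in the same direction lay side by side. Taking tested features in chromosome order, runs of at least 3 neighbours that were all called higher numbered 51 and held 6.97% of the risers. Runs of fallers numbered 84 and held 11.8% of the fallers. These runs are a description without a test, since neighbours can be copies of 1 gene that share reads, and counting on overlapping features repeats reads. The direction that the members of a run share, and its agreement between the arms, is set by the definition of a run. Another tested feature was overlapped by 473 of the called features (9.73%) and by 2534 of all tested ones (10.4%).

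The longest rising run was that of chromosome 8, with 6 neighbours in 13454 bases (54286145 to 54299598) that did not overlap, of which 3 lay on each strand. Summed over the run, the level was 9.53 CPM (control) and 3.43 CPM (ultrasonicated) at 0 h, and 2050 and 4456 CPM at 24 h. The 4th member (54292153 to 54293066) was the most abundant, with 2.4 and 1.6 CPM at 0 h, then 1118 and 2800 CPM at 24 h (log2 10.05, SE 1.04, edgeR adjusted p = 0.00194). Log2 changes of the 6 members ran from 7.57 to 10.66, and all 6 were called without any 1 of the 4 libraries. The run stood at 2640 and 1527 CPM at 48 h, 146 and 154 CPM at 1 week, and 31.3 and 5.35 CPM at 4 weeks.

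Other rising neighbours lay at chromosome 8, 52521963 to 52539655 (5 features), and chromosome 1, 83191900 to 83220870 (4 features). The summed level went from 16.5 CPM (control) and 20.7 CPM (ultrasonicated) to 290 and 225 CPM in the former, and from 1.26 and 0.426 CPM to 250 and 624 CPM in the latter. Fewer members kept their call in them when a library was left out, between 1 and 2 of 5 on chromosome 8 and 3 of 4 on chromosome 1. The other rising runs of 4 lay on chromosome 5, each with a pair of overlapping members. From 43963759 to 44009730 log2 changes were 0.99 to 1.54, and from 51908487 to 51925755 they were 1.56 to 2.43. Leaving out 1 library kept 0 to 3 calls in the former and 2 to 4 in the latter.

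The longest falling runs had 8 members each. On chromosome 9 (54679959 to 54751640) the summed level fell from 362 CPM (control) and 251 CPM (ultrasonicated) to 10.9 and 5.95 CPM, with log2 changes from -7.08 to -3.84. It was still 12.5 and 18.2 CPM at 48 h, and 4 weeks after cutting it was 26.2 and 13.3 CPM. On chromosome 6 (56550311 to 56603782) it fell from 357 and 313 CPM to 67 and 69.6 CPM, with log2 changes from -5.99 to -1.4. Without 1 library at a time 5 to 8 members of the run on chromosome 9 and 3 to 5 of that on chromosome 6 were called.

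A run of 6 fallers on chromosome 9 (11631165 to 11722785), all on the minus strand, had another pattern. Its first 5 members had 4.18 to 17.3 CPM in control and 1031 to 3079 CPM in ultrasonicated explants at 0 h. At 24 h they had 1.43 to 5.91 CPM in control and 5.2 to 17.5 CPM in ultrasonicated explants. In the 1st, 3rd and 4th members the ultrasonicated level at 24 h lay above the control level at 0 h, and in the 2nd and 5th below it. The last member had 451 CPM (control) and 155 CPM (ultrasonicated) at 0 h, and 38 and 22.3 CPM at 24 h. Leaving out the pair of libraries at 48 h, at 1 week or at 4 weeks kept 1 of the 6 calls each time. Without the ultrasonicated library at 0 h 1 of the 6 was called, and without either library at 24 h 0 were. When the control library at 0 h was left out all 6 were called, and 1 with the 4 libraries fitted alone.

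**Figure D5:**
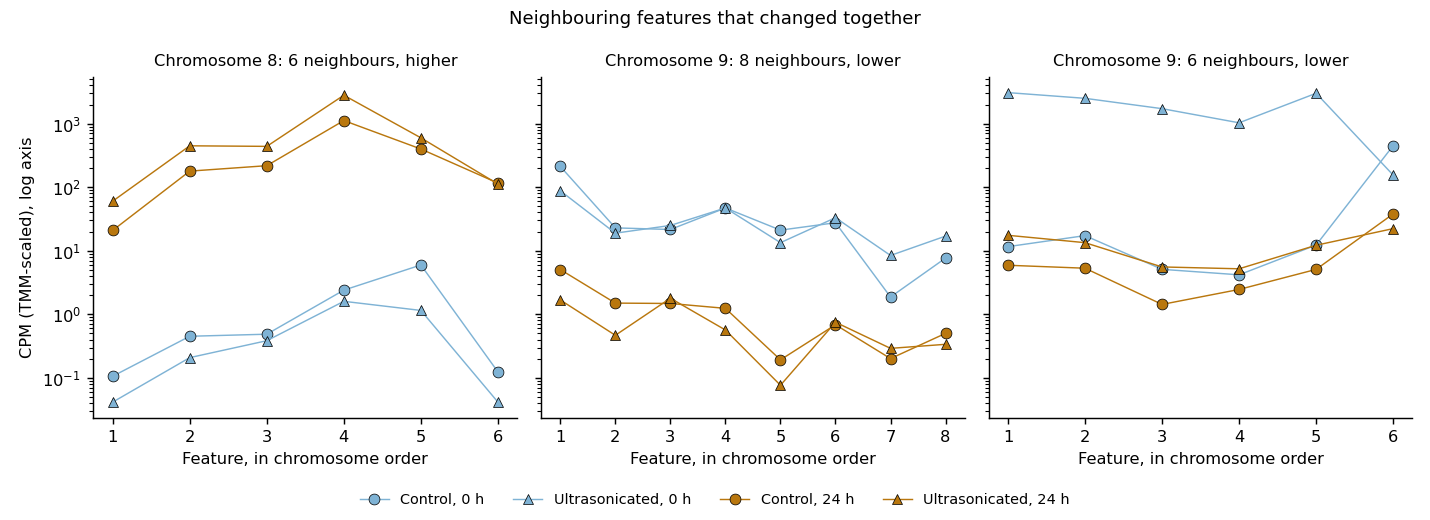
Levels in CPM (log axis) of the members of 3 runs of neighbouring features, in chromosome order, with 1 line per library to be compared within a member and not between members. On chromosome 8 both 24 h lines lie far above both 0 h lines, in the run of 8 on chromosome 9 they lie below them, and in the run of 6 the ultrasonicated 0 h line stands alone at 1031 to 3079 CPM over the first 5 members. Runs hold only features called in one direction, so the direction shown is set by their definition.

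Across the 12 chromosomes the share of tested features called higher ran from 7.38% (chromosome 4) to 11.1% (chromosome 11) and the share called lower from 8.41% (chromosome 11) to 12.2% (chromosome 3). Fallers outnumbered risers most on chromosome 3, with 310 against 207, and risers outnumbered fallers most on chromosome 11, with 179 against 135. Sequences on no chromosome had fewer of both, 5.72% and 6.31%.

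The median length of a gene model on the chromosome, introns included, was 3736 bases in the 2309 risers, 3106 bases in the 2547 fallers and 3087 bases in the 19415 that did not pass. In 4 equal groups of gene models by length, from shortest to longest, the share called higher was 6.31%, 9.15%, 11.7% and 10.9%, while the share called lower was 10.4%, 11%, 11.4% and 9.21%. Grouped by mean level the shares differed more. In the lowest group (up to 1.84 CPM) 3.72% were called higher and 1.68% lower, against 15.1% and 22.2% in the highest (from 39.7 CPM). These shares were not tested, and counts give less power to short and rare transcripts.

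Few noncoding features were called in these libraries, which were made for mRNA. The filter on low counts was passed by 150 of 1409 such features, and 3 of them (2%) were called, 2 higher and 1 lower, against 19.9% of all features. edgeR gave 14 of the 150 an unadjusted p under 0.05, and DESeq2 called 21. A U3 locus (Plant_U3 in the table, a guide of ribosomal RNA processing; chromosome 1, 79022061 to 79022275) fell from 272 counts in control and 414 in ultrasonicated explants to 46 and 51 (log2 -3.11, SE 0.63, edgeR adjusted p = 0.0141). Both later counts lay far below both earlier ones. A locus of U2, the spliceosomal RNA that pairs with the branch site (on a sequence not placed on a chromosome, 29377029 to 29377226), had 0 and 1 counts at 0 h and 81 and 83 counts at 24 h (edgeR adjusted p = 0.0318). The third was a feature without a class name that overlaps a gene model (chromosome 6, 2746239 to 2746356), at 19 and 21.1 CPM and then 38.2 and 41.4 CPM (0.99, edgeR adjusted p = 0.0272).

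By class, 1 of 16 spliceosomal snRNA loci and 1 of 18 snoRNA loci were called, and 0 of 43 rRNA features, 10 loci of the signal recognition particle RNA and 1 miRNA locus (14 and 0 counts at 0 h in this class, 7 and 7 at 24 h). No tRNA locus passed the filter, and the 523 in the table had 13 to 70 counts in all per library. rRNA features summed to 368455 counts in control and 591645 in ultrasonicated explants at 0 h, and to 2688172 and 84638 at 24 h, so the 24 h libraries lay on either side of the 0 h libraries. Loci of these classes can be near-identical copies, which makes their counts uncertain, and 59 of the 150 overlapped a gene model, whose reads cannot be told apart from theirs.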

How the data were processed

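Counts per feature were taken as the authors deposited them: whole numbers for 40430 features (39021 gene models and 1409 noncoding features) in 10 libraries, with no sign of normalization and 0 rows without a feature name. HISAT2 2.1.0, FastQC 0.11.5 and Trim Galore 0.5.0 are named by the submitters' processing notes, and a kit for stranded mRNA libraries was used, per the labels' protocols. Genome build, annotation, counting program and strand setting were not given in any source used here, and coordinates are those of the table. Symbols and noncoding classes were used only where the table's annotation identifier equals that of the counted feature.

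In R 4.3.3, features were filtered with filterByExpr by arm (24421 kept), scaled by TMM and tested with edgeR 4.0.16 (quasi-likelihood, time and arm as additive terms, 10 libraries, 4 residual degrees of freedom, Benjamini-Hochberg adjustment over all features). Standard errors were obtained as |log2 fold change|/√F. Ratios within an arm carry exact 95% binomial (Clopper-Pearson) intervals. PCR duplicates cannot be told from molecules. Alternatives used DESeq2 1.42.0, limma-voom 3.58.1, other scalings and filters, the 4 libraries alone (1 residual degree of freedom), no arm term and left-out libraries. The text names every gene with a symbol and the 2 gene models without one that rose most and the 2 that fell most. These were taken among called features (same direction in both arms, mean of at least 20 CPM, over 3 counts in all 4 libraries). The strict loss and gain features, runs and noncoding loci are given by position. The comparison, genes and lists were chosen with earlier results of these data known.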

Additional observations from a re-analysis of the deposited data

Results flagged for a closer look

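In 5 genes the 2 arms moved in opposite directions from 0 h to 24 h, each on 1 library per arm and time, and the difference was not tested. The log2 change in the ultrasonicated minus the control arm, with 0.5 CPM added to each level, was -0.93 for HMG3 (0.59 in control, -0.33 in ultrasonicated explants), 0.52 for NDA1 (-0.39 and 0.12), 0.7 for 2MBCD (-0.39 and 0.31), 0.8 for NDB1 (-0.45 and 0.35) and -0.82 for RPOA (0.57 and -0.25). With total counts as the scaling HMG3 (0.72 and 0.22) and RPOA (0.67 and 0.09) moved upward in both arms, while NDA1, 2MBCD and NDB1 still moved oppositely.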

How the results depend on the processing

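Against 4859 features called (2311 higher, 2548 lower), the 4 libraries fitted alone called 2076 (740 and 1336), and DESeq2 7357 (3411 and 3946). Total counts gave 3749 higher, and leaving out the pair at 48 h gave 1439 higher. Without 1 of the 4 libraries the counts ran from 1282 to 4832 in all, 499 to 2092 higher and 771 to 2740 lower. Noncoding calls, 3 in the main analysis, were 0 with the 4 libraries alone in edgeR (11 at an unadjusted p under 0.05), 6 without the arm term, 21 with DESeq2 and 1 to 8 without a library. A level of 5 CPM left 7 features gained and 1 lost, and runs of at least 4 numbered 5 higher and 28 lower.

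Of 383 recomputed log2 changes of the 24 named genes, 324 kept direction and side of the threshold, 37 lost and 7 gained the call, and 15 turned sign, none of them a called gene. With total counts PCM6 was 0.22, NDA1 0.11, 2MBCD 0.29, NDB1 0.26 and EIF5A2 0.053. With the stricter filter HMG3 was -0.0038. Without the control library at 0 h HMG3 was -0.47, NDA1 0.43, 2MBCD 0.21 and NDB1 0.3. Without that at 24 h 2MBCD was 0.22, NDB1 0.13 and RPOA -0.77. Without the ultrasonicated library at 24 h HMG3 was -0.011 and ATPE 0.45. Over the 4 libraries left out in turn, the range was -0.47 to 0.7 for HMG3, -2.96 to 0.45 for ATPE, -0.71 to 0.43 for NDA1, -0.34 to 0.22 for 2MBCD, -0.45 to 0.3 for NDB1 and -0.77 to 1.02 for RPOA. The cause was not tested. With 4 libraries alone the calls of EIF5A4, RBCS-2C, EIF5A5, WHY1 and PGSC0003DMG400030341 ended.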
